A study of Mus musculus with 18 samples.

Results

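The question addressed was what lipopolysaccharide (LPS) still opens and closes in the chromatin of macrophages that have already been exposed to IL-10. It was examined in 6 ATAC-seq libraries of the 18 in the series, chosen by their labels, namely 3 of cells given IL-10 followed by LPS (LPS + IL-10) and 3 of cells given IL-10 alone (IL-10). Bone marrow of 3 Il10-/- mice (C57BL/6J, 12-week-old males) was grown for 6 days into bone marrow-derived macrophages (BMDMs) in medium conditioned by L929 cells before it was divided over the conditions, which the series calls biologically matched. The IL-10 libraries come from cells kept with 10 ng/mL recombinant IL-10 for 12 hours, and the LPS + IL-10 libraries from cells that were then stimulated with 50 ng/mL LPS for 4 hours. Every group, controls included, lacks Il10, so the only IL-10 intended in these cultures was the added protein. For comparison, 3 libraries of cells with no treatment (Unstimulated) and 3 of cells given the same LPS without IL-10 (LPS) are used, which are libraries separate from those above. The remaining 6 libraries were treated with 500 nM (+)-JQ1 and enter only the shared estimate of the spread.

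LPS is a component of the outer membrane of Gram-negative bacteria that macrophages sense through TLR4. The receptor signals through MyD88 and TRIF, which lead to NF-kappaB and AP-1 and, through interferon regulatory factors, to secreted type I interferon. IL-10 is an anti-inflammatory cytokine whose receptor signals through JAK1, TYK2 and STAT3, and in macrophages it restrains the output of inflammatory genes such as Il12b and Il6. In ATAC-seq a transposase inserts adapters into open DNA, so the number of reads in a region (a peak) measures how accessible its chromatin is and not how much RNA its gene makes.

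The union of all peaks held 194284 regions with a median width of 956 bp, of which the authors classed 36670 as promoter (from 1000 bp before to 100 bp after a transcription start site, TSS) and 157614 as distal. The total count in peaks lay between 20541878 and 21847467 in the IL-10 libraries and between 16907995 and 20754096 in the LPS + IL-10 libraries. Values given per library are counts scaled by TMM factors to a common library size. These factors were 0.974 to 0.992 in IL-10 cells, 0.979 to 1.05 in LPS + IL-10 cells and 0.942 to 0.993 in LPS cells, while the Unstimulated libraries stood apart at 1.04 to 1.24. That difference touches the comparison with cells without IL-10 and not the comparison within IL-10-treated cells. Replicate 2 was sequenced in lane 5 without LPS and in lane 6 with LPS, whereas both libraries of replicate 1 were in lane 5 and both of replicate 3 in lane 6. All 6 defining macrophage genes looked at (Spi1, Csf1r, Emr1, Itgam, Cd68 and Lyz2) had promoter peaks within 1000 bp of a TSS, whose summed level was 178 to 184 CPM (counts scaled to a common library total) in IL-10 and 194 to 214 in LPS + IL-10 cells over 10 peaks. Markers of T cells had such peaks at 2 of 8 genes, of B cells at 5 of 7, of neutrophils at 6 of 8, of fibroblasts at 2 of 7, and of erythroid and mast cells at 2 of 8. Their summed levels without and with LPS were 23.3 to 28.6 and 22.4 to 27.3 CPM for T cells, 19.8 to 22.9 and 23.3 to 24.9 for B cells, 61.0 to 68.2 and 65.1 to 74.3 for neutrophils, 45.9 to 48.4 and 52.5 to 55.5 for fibroblasts, and 2.96 to 4.71 and 3.30 to 4.31 for erythroid and mast cells. These sums are over 4, 8, 9, 7 and 3 peaks in the same order. Per peak, the median level in IL-10 cells was 18.3 CPM for macrophage genes. For the other lists it was 6.29, 2.84, 7.03, 6.73 and 1.33 CPM. The part of other cell types in the results was not tested, and a change in the share of cells cannot be told apart from a change within each cell in bulk libraries.

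The sequences of 6 regions on which the results turn are shown here, from build mm9 and on the plus strand, 200 bases each. Capitals mark matches to the motifs searched, on either strand, and a match is a description of the letters only. The motifs are TGACTCA (AP-1), a pair of GAAA separated by any 2 bases (interferon element), TTCCNGGAA (STAT), GAGGAAG (PU.1/ETS), CACGTG (E-box) and the kappaB consensus. The first 3 regions are from the promoter with the largest rise (Ccl5, chr11:83344021-83344220), a distal peak among the largest rises that holds an interferon element (near Mdfic, chr6:15633605-15633804) and the distal peak with the largest fall (near Sepp1, chr15:3235485-3235684). The other 3 are from a peak that LPS opened with IL-10 but for which no opening was called without it (in Saal1, chr7:53963242-53963441), the distal element upstream of Il12b (chr11:44203657-44203856), and the Socs3 promoter (chr11:117830501-117830700).
Ccl5: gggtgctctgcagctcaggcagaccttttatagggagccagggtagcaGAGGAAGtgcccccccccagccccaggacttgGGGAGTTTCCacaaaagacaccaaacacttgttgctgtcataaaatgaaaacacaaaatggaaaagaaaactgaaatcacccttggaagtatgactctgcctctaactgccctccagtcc
Mdfic: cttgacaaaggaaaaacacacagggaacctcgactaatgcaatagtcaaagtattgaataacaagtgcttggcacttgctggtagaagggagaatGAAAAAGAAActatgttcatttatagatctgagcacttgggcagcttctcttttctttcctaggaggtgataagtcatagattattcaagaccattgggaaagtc
Sepp1: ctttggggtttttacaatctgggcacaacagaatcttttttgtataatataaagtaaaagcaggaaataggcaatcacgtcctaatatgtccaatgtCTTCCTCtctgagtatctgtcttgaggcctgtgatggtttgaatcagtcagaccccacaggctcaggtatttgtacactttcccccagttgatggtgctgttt
Saal1: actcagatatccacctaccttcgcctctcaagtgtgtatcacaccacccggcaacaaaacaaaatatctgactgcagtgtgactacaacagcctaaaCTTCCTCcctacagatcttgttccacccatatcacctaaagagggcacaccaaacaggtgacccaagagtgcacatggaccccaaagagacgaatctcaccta
Il12b: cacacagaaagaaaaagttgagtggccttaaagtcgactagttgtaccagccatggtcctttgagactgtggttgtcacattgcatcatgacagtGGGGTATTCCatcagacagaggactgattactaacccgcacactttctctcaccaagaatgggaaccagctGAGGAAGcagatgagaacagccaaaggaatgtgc
Socs3: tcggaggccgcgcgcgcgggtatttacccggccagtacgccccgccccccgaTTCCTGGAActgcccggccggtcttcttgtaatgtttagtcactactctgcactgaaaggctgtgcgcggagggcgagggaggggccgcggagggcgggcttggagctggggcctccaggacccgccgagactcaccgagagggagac
The capitals are a PU.1/ETS and a kappaB match in Ccl5 and in Il12b, an interferon element in Mdfic, a PU.1/ETS match on the minus strand in Sepp1 and Saal1, and a STAT match in Socs3.

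After IL-10, LPS still changed the accessibility of a large number of regions, most of them distal. A differentially accessible region (DAR) is a peak with a false discovery rate (FDR, Benjamini-Hochberg over all peaks tested) under 0.05 and a |log2 fold change| above 0.5 in edgeR's quasi-likelihood test. Of 157564 distal peaks tested, 14922 (9.47%) opened and 10520 (6.68%) closed. Of 36666 promoter peaks tested, 2431 (6.63%) opened and 2040 (5.56%) closed. Openings were larger than closings, since 54.3% of the distal DARs that opened had a log2 fold change above 1 against 41.8% of those that closed below -1, and at promoters these shares were 37.5% and 19.9%. Beyond a log2 fold change of 3, 79 distal and 6 promoter peaks opened and 3 distal peaks closed. Over all peaks tested the median log2 fold change was 0.022 at distal and -0.072 at promoter peaks. When the 3 LPS + IL-10 libraries are set against the 3 IL-10 libraries, 34.8% of all peaks tested did not overlap between the groups.

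The number of DARs depended on single replicates and on the scaling. Without replicate 3 in any group, 9862 distal peaks opened, 5620 distal peaks closed and 1066 promoter peaks closed. Without replicate 2, 6946 distal and 1275 promoter peaks closed, and without LPS + IL-10 replicate 3 alone, 1358 promoter peaks closed. Rising peaks made up 54.4% of promoter DARs in the main fit, 64.5% with scaling by total counts, and 72.3% when promoter and distal peaks were scaled as separate tables, and 42.2% and 44.1% without replicate 1 and without LPS + IL-10 replicate 1. At distal peaks 58.7% of DARs rose, with 55.3% to 65.1% under the other scalings. In IL-10-treated cells, distal peaks also took a larger share of all reads in peaks after LPS. The log2 ratio of distal to promoter counts was 0.206, 0.220 and 0.189 in the IL-10 libraries. In the LPS + IL-10 libraries it was 0.361, 0.384 and 0.441. All 3 LPS + IL-10 values lay above all 3 IL-10 values, a mean difference of 0.190 (p = 0.1 in a two-sided exact permutation test, which cannot go lower with 3 against 3 libraries). Taken at the median peak, the difference was 0.00556 (exact permutation test, p = 0.9). Without IL-10 the ratio was 0.537, 0.419 and 0.263 in the Unstimulated libraries. It was 0.174, 0.267 and 0.277 in the LPS libraries, so those groups overlapped and did not show the same shift. The cause of the shift was not tested.

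Among peaks with at least 50 normalised counts on average, the largest openings were near Ifit1, Mx2 and Ifit3, which belong to the interferon response. Ifit1 encodes an antiviral protein that binds RNA, and a distal peak 14005 bp downstream of its TSS (chr19:34728938-34729795, intergenic) had counts of 8.31, 3.65 and 9.71 in the IL-10 libraries and 144, 119 and 135 in the LPS + IL-10 libraries. The rise was 4.17 on the log2 scale (SE 0.27, FDR = 2.8e-25), and the lowest LPS + IL-10 library was far above the highest IL-10 library. A peak in Tmprss2, in the neighbourhood of the antiviral GTPase gene Mx2 (chr16:97786963-97787809), went from 13.9, 23.7 and 18.5 to 363, 264 and 323 (log2 fold change 4.07, SE 0.20, FDR = 1.9e-33). Upstream of Ifit3, another gene of the same antiviral family, the peak at chr19:34653883-34655146 went from 7.39, 18.3 and 20.3 to 253, 171 and 196 (log2 fold change 3.74, SE 0.23, FDR = 5.2e-26). At each of these peaks LPS + IL-10 replicate 2 was the lowest of its group, and the groups did not overlap. The peaks were chosen from these same libraries for a large change with the same direction in every same-numbered pair. Separation of the groups at them therefore follows largely from the choice.

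Among the other large openings, the distal peak near Mdfic at chr6:15633258-15634070, at -36997 bp from the TSS and intergenic, went from 24.0, 13.7 and 15.9 to 261, 196 and 223 (log2 fold change 3.66, SE 0.21, FDR = 9.3e-28). A peak 53246 bp downstream of the TSS of Malt1, whose protein links antigen receptors to NF-kappaB, had 1.85, 3.65 and 16.8 counts before and 145, 67.5 and 82.8 after LPS (log2 fold change 3.69, SE 0.35, FDR = 1.2e-15). Both regions, chosen in the same way, were separated between the groups in all libraries, although the Malt1 peak had few counts without LPS. The promoter with the largest rise was that of Ccl5, a chemokine that attracts T cells and monocytes (chr11:83343408-83344339), with 30.5, 20.1 and 17.7 counts in IL-10 and 349, 251 and 312 in LPS + IL-10 libraries (log2 fold change 3.74, SE 0.20, FDR = 3.9e-30). Next came a pair of promoter-class peaks in Tmprss2 beside Mx2, which rose by 3.36 (SE 0.21) and 3.09 (SE 0.19) on the log2 scale.

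Closings were largest near Sepp1 at distal peaks and at Ctsd and Apoe among promoters. The largest fall was in an intron of Ccdc152 near Sepp1, the gene of the selenium transport protein selenoprotein P (chr15:3235039-3235914), where the IL-10 libraries had 102, 95.9 and 104 counts and the LPS + IL-10 libraries 11.5, 10.9 and 14.7 (log2 fold change -3.00, SE 0.28, FDR = 6.5e-16). A neighbouring peak of the same locus (chr15:3232292-3233828) went from 166, 163 and 229 to 24.8, 26.1 and 29.3 (log2 fold change -2.79, SE 0.21, FDR = 1.3e-20). In each case the counts after LPS were close together and well below those before. Other distal peaks with large falls lay in Gramd4 (log2 fold change -2.61, SE 0.24), at Zfp36l1, which encodes a protein that promotes decay of AU-rich mRNAs (-2.47, SE 0.16), and in Dlgap5 next to Lgals3, the gene of galectin-3 (-2.46, SE 0.18). The Ctsd gene, for the lysosomal protease cathepsin D, had a wide promoter peak (chr7:149558389-149563637) with 1470, 1526 and 1597 counts before and 398, 430 and 388 after LPS (log2 fold change -1.92, SE 0.14, FDR = 5.6e-22), and a second promoter peak that fell by 1.91 (SE 0.16). Apoe encodes a carrier of cholesterol out of macrophages, and its promoter peak (chr7:20283702-20284565) went from 419, 466 and 557 to 144, 106 and 131 (log2 fold change -1.92, SE 0.15, FDR = 2.8e-19). The groups were separated at all of these peaks, which the choice of peaks largely fixed.

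**Figure D1:**
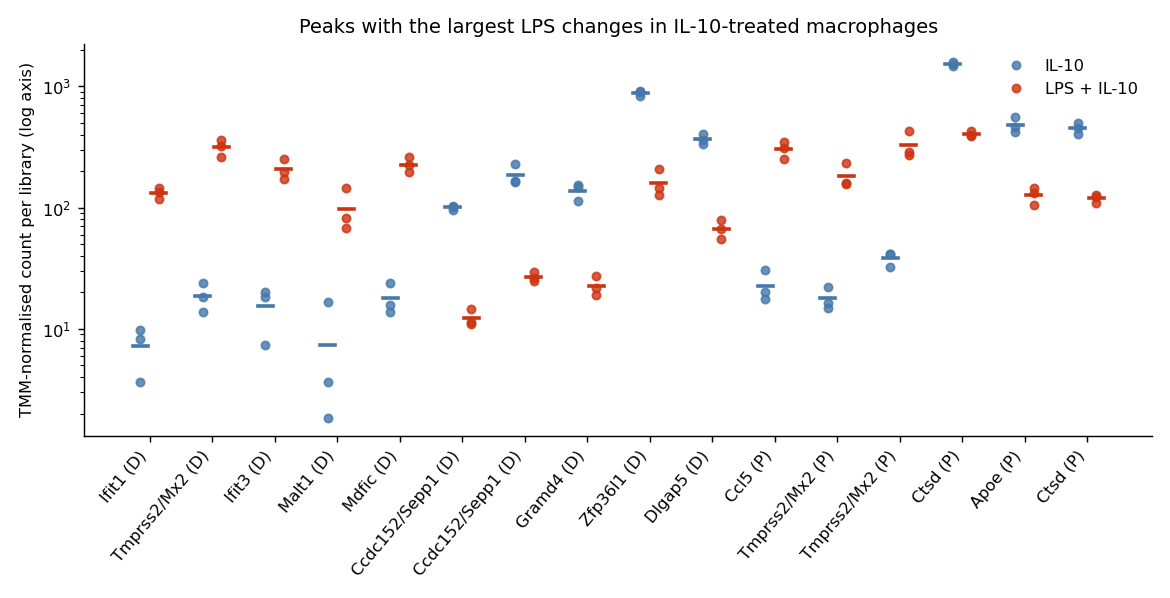
TMM-normalised count (log axis) of each IL-10 (blue) and LPS + IL-10 (red) library at the 16 peaks with the largest LPS changes among those with at least 50 normalised counts on average, with D for distal and P for promoter peaks and a bar at the mean of the 3 libraries. The 8 peaks that opened have all red points above all blue points, as at Ifit1 with 119 to 144 against 3.65 to 9.71, and the 8 that closed have them below, as at Ctsd with 388 to 430 against 1470 to 1597. The peaks were chosen from these same libraries for large changes, so this separation follows largely from the choice.

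Gene lists were examined through the peaks within 25 kb of a TSS of each member, read against the 8.93% of all peaks tested that opened and the 6.47% that closed. A peak can lie near several listed genes, and it was counted once in its list. Counts of genes with an opened peak have no share over all genes beside them, since none was computed. They can be high at background shares of peaks. Lysosome, lipid and cholesterol efflux genes, with 8.0% of peaks opened, had openings at 12 of 18 genes. At the top of the pathway, the genes of the LPS receptor and its adaptors had 20 of 210 peaks opened (9.52%) and 11 closed (5.24%), close to the background. Without replicate 1, 16 opened and 17 closed, and without replicate 3, 14 and 7. Tlr4, the receptor itself, had 5 of its 12 peaks closed and none opened. In the peak in its 3' part (chr4:66501759-66503073) the IL-10 libraries had 48.0, 43.8 and 49.4 counts and the LPS + IL-10 libraries 19.1, 20.7 and 18.1 (log2 fold change -1.29, SE 0.30, FDR = 0.00066). The kinase gene Irak2 accounted for 12 of the openings of this list, with a peak in an intron that went from 29.6, 19.2 and 13.2 to 57.3, 67.5 and 52.6 (log2 fold change 1.51, SE 0.28, FDR = 1.5e-05). At Ly96, whose protein binds LPS together with TLR4, the single opened peak, in an intron of the neighbouring Tmem70, had a log2 fold change of 0.98 (SE 0.26, FDR = 0.0029), but 0.61 (FDR = 0.18) without replicate 1, 0.77 (FDR = 0.053) without IL-10 replicate 1 and 0.87 (FDR = 0.05) without replicate 3.

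Downstream of the receptor, NF-kappaB genes had a larger share of opened peaks than AP-1 genes. Of 251 peaks near NF-kappaB subunits and inhibitors, 89 opened (35.5%) and 1 closed, with openings at 11 of 12 genes. Tnip1 and Tnfaip3, which both limit NF-kappaB, had 22 of 24 and 18 of 23 peaks opened. A distal Tnfaip3 peak (chr10:18713202-18714191) went from 20.3, 19.2 and 25.6 to 356, 190 and 203 (log2 fold change 3.52, SE 0.22, FDR = 1.6e-25). For Nfkbia, the inhibitor IkappaB-alpha, a distal peak went from 51.7, 32.0 and 38.0 to 253, 160 and 202 (log2 fold change 2.34, SE 0.21, FDR = 4.3e-17). Nfkb1 had 14 of 43 peaks opened and 1 closed, and Rel 8 of 18 opened. Near the 12 AP-1 genes, 35 of 231 peaks opened (15.2%) and 5 closed, and the largest rise was at Batf (log2 fold change 1.73, SE 0.21). Without replicate 2 or 3 in every group 18 opened, and without IL-10 replicate 2 or 3 alone 22 and 23. Jun itself had 3 of 7 peaks closed and none opened.

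Inflammatory cytokine and chemokine genes kept a large response, but unevenly. Of 342 peaks near 25 genes, 130 opened (38.0%) and 5 closed (1.46%), and openings were found at 22 of the 25 genes. Among chemokine genes, Ccl5 had 13 of 14 peaks opened, Ccl3 19 of 22 and Cxcl10 15 of 19, while Ccl2 had 5 of 17 and Cxcl1 6 of 15. The peak with the largest rise near Ccl3 and Ccl4, which attract monocytes and neutrophils (chr11:83478264-83479880, intergenic), had 79.4, 63.9 and 80.3 counts before and 958, 760 and 739 after LPS (log2 fold change 3.45, SE 0.16, FDR = 3.3e-34). Il6, the gene of the acute-phase cytokine, had none of its 13 peaks opened or closed, and Ccl22 none of its 8. Cxcl3, a neutrophil chemokine gene, had 3 of 13 peaks closed.

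Il12b, for the p40 subunit of IL-12 and IL-23, moved in both directions. Its promoter peak (chr11:44211788-44213325) had 168, 200 and 217 counts in IL-10 and 207, 176 and 230 in LPS + IL-10 libraries, a log2 fold change of 0.07 (SE 0.15, FDR = 0.79) whose sign changed when single libraries were left out, and the groups overlapped. Its upstream element, shown above (peak chr11:44203226-44204217, at -9844 bp from the TSS), rose from 65.6, 74.9 and 56.5 to 413, 307 and 323 (log2 fold change 2.40, SE 0.17, FDR = 8.4e-23). At the 3' end, the peak chr11:44226839-44229989 went from 381, 348 and 354 down to 208, 238 and 205 (log2 fold change -0.74, SE 0.14, FDR = 3.2e-05). In all, 3 of the 18 Il12b peaks opened and 2 closed. Of these, the opened peak chr11:44210779-44211626 (log2 fold change 0.97, SE 0.36, FDR = 0.049) lost its call under 13 alternatives and the closed peak chr11:44225354-44226608 (log2 fold change -0.77, SE 0.29, FDR = 0.048) under 12, for example -0.32 (FDR = 0.6) without replicate 1.

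At Tnf and Il1b, opened peaks were found over the locus, but several of these calls rested on single libraries. The main Tnf peak, which spans the gene (chr17:35332272-35336684), went from 423, 504 and 466 to 1362, 1178 and 1293 (log2 fold change 1.46, SE 0.14, FDR = 7.6e-15), and 9 of 16 peaks within 25 kb opened. Other opened peaks of this window lie at the neighbouring genes Ltb, Lta and Nfkbil1. Without LPS + IL-10 replicate 3 alone, 5 of these 9 calls were lost, and without replicate 3 in every group 5. For Il1b, 12 of 21 peaks opened and none closed. Of these calls 4 were lost without replicate 3 and 3 without IL-10 replicate 3. The promoter peak chr2:129194399-129197486 had 177, 162 and 161 counts before and 337, 313 and 411 after LPS (log2 fold change 1.09, SE 0.14, FDR = 1.9e-09), and a peak in the gene at chr2:129192231-129193242 went from 12.9, 16.4 and 19.4 to 128, 88.2 and 122 (log2 fold change 2.78, SE 0.26, FDR = 1.6e-15). In contrast, the Il6 promoter peak (chr5:30337938-30340058) had 260, 295 and 370 counts in IL-10 and 341, 303 and 307 in LPS + IL-10 libraries (log2 fold change 0.04, SE 0.14, FDR = 0.89), and the groups overlapped. Its sign too changed with single libraries left out.

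Inflammatory enzymes and surface receptors had 102 of 301 peaks opened (33.9%) and 10 closed (3.32%). The prostaglandin synthase gene Ptgs2 had 9 of 12 peaks opened, and the one with the largest rise (chr1:151953700-151954517) went from 7.39, 6.39 and 8.83 to 104, 39.2 and 58.7 (log2 fold change 3.14, SE 0.36, FDR = 1.2e-11). Irg1, for the enzyme that makes itaconate, had 17 of 23 peaks opened, with a largest log2 fold change of 2.96 (SE 0.24). Il7r, a cytokine receptor gene, had 4 of 12 peaks closed and none opened, though its largest fall was at a peak with few counts whose call was lost without IL-10 replicate 2 (FDR = 0.091), without LPS + IL-10 replicate 2 (FDR = 0.054) and without replicate 1 (FDR = 0.056) or 2 (FDR = 0.25) of every group.

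Interferon response genes had the highest share of opened peaks of the 18 lists. Of 432 peaks, 253 opened (58.6%) and 1 closed, and the median log2 fold change was 0.88 against 0.001 over all peaks tested. Every one of the 24 genes had at least 1 opened peak, a count with no share over all genes beside it. Rsad2 and Cmpk2, neighbouring antiviral genes, each had 22 opened peaks, of 23 and 24. Oasl1 had 23 of 27 and Mx1 15 of 17. By contrast Irf1, a transcription factor gene of the same response, had 4 of 19 peaks opened. A second Ifit1 peak, with fewer counts, had the largest rise of the list, from 3.69, 2.74 and 4.41 to 99.2, 53.3 and 57.0 counts (log2 fold change 4.22, SE 0.36, FDR = 1.2e-17).

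Genes that restrain LPS signalling came next, with 127 of 259 peaks opened (49.0%) and 5 closed (1.93%), at all 12 genes. The largest numbers were at Dusp16, a phosphatase of the JNK pathway (35 of 42 opened), and Irak3, a kinase-like protein that blocks TLR signalling (27 of 39). Without IL-10 the openings at these genes numbered 11 and 12, and over the list 93. Other members had fewer openings with IL-10 than without, as Cish (2 against 11), Traf1 (8 against 12) and Socs1 (5 against 8). These are counts of calls from separate comparisons, and the tested difference between the responses is given below. Il1rn encodes the secreted antagonist of the IL-1 receptor, and its peak at chr2:24206702-24209903 went from 56.3, 53.9 and 47.7 to 366, 253 and 349 (log2 fold change 2.62, SE 0.18, FDR = 1.0e-23). Traf1 had a peak in an intron that went from 19.4, 28.3 and 20.3 to 161, 78.4 and 141 (log2 fold change 2.49, SE 0.25, FDR = 1.4e-14).

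For the IL-10 receptor and STAT3 response genes, 69 of 291 peaks opened (23.7%) and 6 closed (2.06%). Saa3, an acute-phase gene, and Socs3, which feeds back on cytokine receptors, had 17 opened peaks each, of 25 and 27. The Socs3 promoter peak shown above (chr11:117830075-117830906) had 1119, 1281 and 1346 counts in IL-10 and 1192, 1120 and 910 in LPS + IL-10 libraries (log2 fold change -0.22, SE 0.13, FDR = 0.27), so the groups overlapped there. The flanking promoter peak chr11:117831514-117832857 rose from 89.6, 94.1 and 101 to 208, 163 and 225 (log2 fold change 1.07, SE 0.17, FDR = 7.6e-07), and the peak over the 3' part of Socs3 from 469, 498 and 564 to 1256, 1202 and 1102 (log2 fold change 1.22, SE 0.14, FDR = 2.8e-11). At the Il10 locus the promoter peak (chr1:132915317-132916027) had 128, 95.9 and 111 counts in IL-10 and 110, 96.9 and 99.2 in LPS + IL-10 libraries (log2 fold change -0.13, SE 0.18, FDR = 0.68), and as it lies before the TSS it does not test the deletion.

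Lysosome, lipid and cholesterol efflux genes had 28 of 350 peaks opened (8.0%) and 29 closed (8.29%). With total counts 35 opened and 26 closed, with DESeq2's test 24 and 29, and without replicate 2 17 and 24. Both shares were near the background, with openings at 12 genes and closings at 9. Ctsd had 7 of 18 peaks closed, Gpnmb, for a lysosomal membrane glycoprotein, 6 of 22, and Apoe 5 of 16. Other members went the other way, with 8 of 57 peaks opened at Mitf, 4 of 20 at Pparg and 3 of 23 at Cd36. Macrophage lineage and resident genes had 52 of 308 peaks opened (16.9%) and 36 closed (11.7%), both above the background. These were 33 and 21 without replicate 2, and 38 and 19 without replicate 3. Mrc1, for the mannose receptor, had 12 of 35 peaks closed and Mertk, for a receptor for dying cells, 11 of 29, with none opened at either. Cebpa, a myeloid transcription factor gene, had a distal peak that went from 326, 314 and 350 to 134, 132 and 117 (log2 fold change -1.37, SE 0.16, FDR = 5.6e-12). Itgam, for the integrin CD11b, had 14 of 44 peaks opened and none closed, as did Spi1, for PU.1, with 8 of 15.

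Among the remaining lists, MHC class II genes had 14 of 88 peaks opened (15.9%) and 5 closed, of which 4 lay at Ciita, their master regulator. The openings numbered 8 without IL-10 replicate 2, 7 without LPS + IL-10 replicate 3, and 7 and 6 without replicates 2 and 3 in every group, and the closings 2 without replicate 1 or 2. Cell cycle genes had 6 of 206 opened (2.91%) and 10 closed (4.85%), and ribosomal protein genes 17 of 252 opened (6.75%) and 8 closed (3.17%). Cell cycle closings numbered 16 without replicate 1, 4 without replicate 3 and 6 without LPS + IL-10 replicate 3, and ribosomal openings 10 and 9 without replicates 2 and 3. Markers of other cell types stayed at or below the background for openings, with 5 of 68 peaks near T cell, 5 of 70 near B cell, 6 of 88 near neutrophil, 1 of 23 near fibroblast and 2 of 39 near erythroid and mast cell genes. Closed peaks numbered 5, 3, 1, 1 and 3 in the same order. With single libraries or replicates left out, T cell openings fell to between 1 and 4, and neutrophil closings reached 5 without replicate 1.

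**Figure D2:**
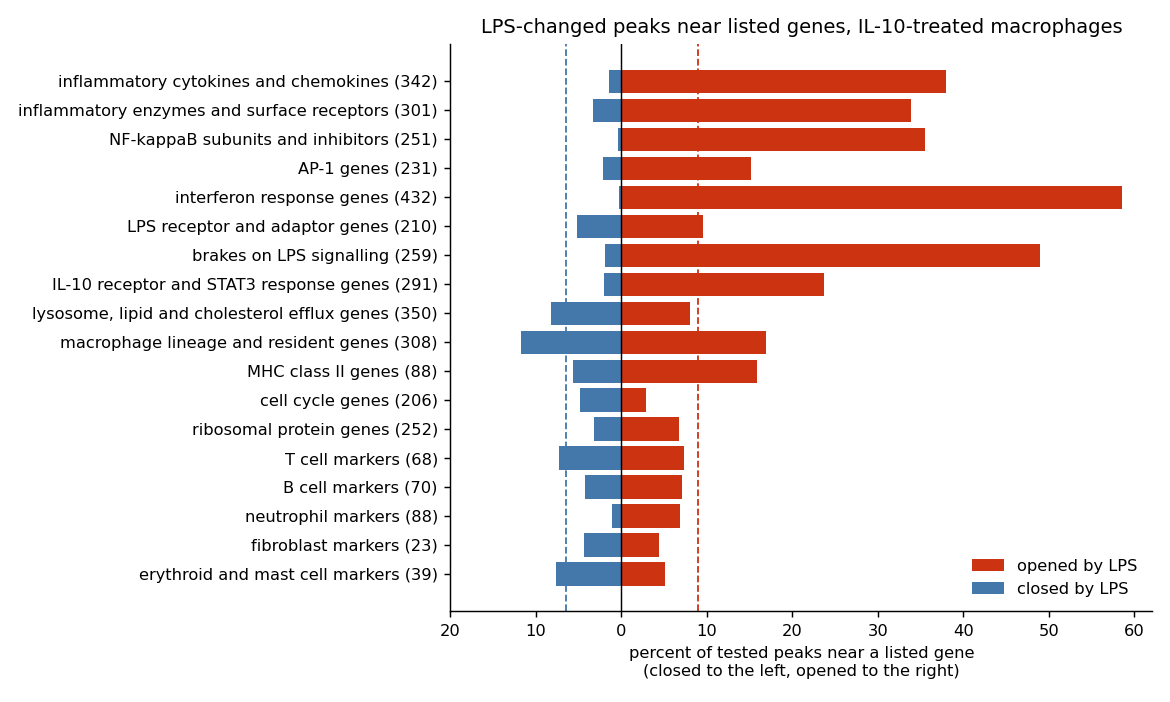
Percent of tested peaks within 25 kb of a listed gene that LPS opened (red, to the right) and closed (blue, to the left) in IL-10-treated macrophages, with the number of peaks in parentheses and dashed lines at the 8.93% opened and 6.47% closed of all peaks tested. Interferon response genes reach 58.6% opened and genes that restrain LPS signalling 49.0%, while markers of other cell types lie between 4.35% and 7.35%.

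The same LPS stimulus was then followed in cells without IL-10, in libraries that share none with the comparison above. There, 22790 peaks opened (11.7%) and 19802 closed (10.2%). At promoters 14.3% opened and 6.71% closed, and at distal peaks 11.1% and 11%. Of the peaks opened without IL-10, 39.8% were also opened with it, and of those opened with IL-10, 52.3% were also opened without. For closed peaks these shares were 26.4% and 41.6%. Calls in opposite directions were few, with 227 peaks opened without and closed with IL-10, and 160 the other way. At the distal peaks opened without IL-10 the median log2 change with IL-10 was 0.55 against 1.00 without. At promoters opened without IL-10 it was 0.14 against 0.69. Those peaks were chosen for their change without IL-10, which raises the second value of each pair. At the distal peaks opened with IL-10, the medians were 1.05 with and 0.69 without.

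**Figure D3:**
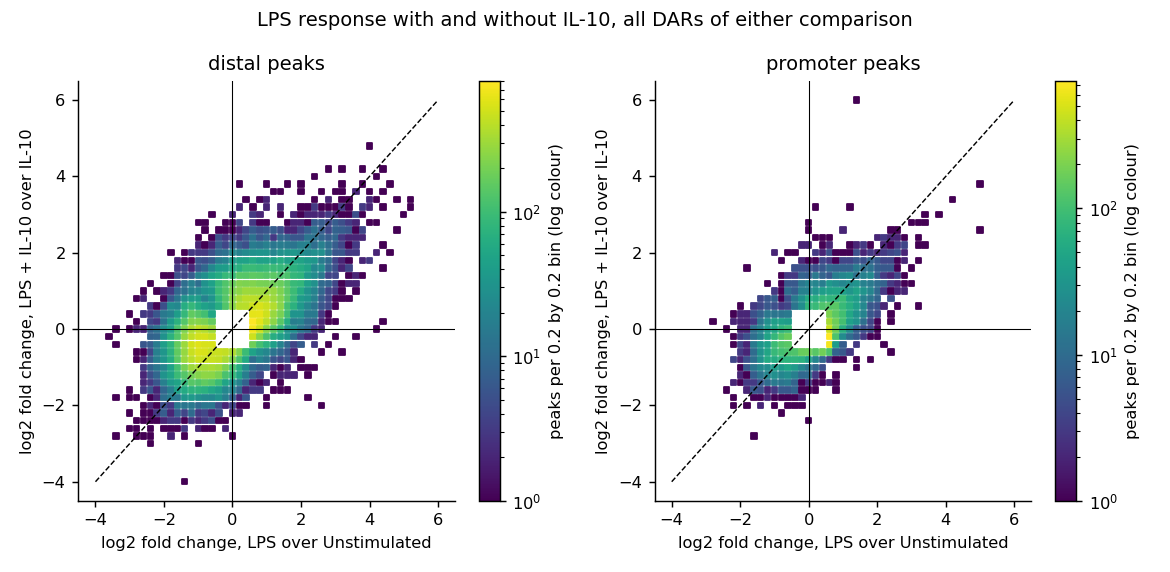
Log2 fold change of LPS + IL-10 over IL-10 against that of LPS over Unstimulated for every DAR of either comparison, in bins of 0.2 coloured by the number of peaks (log scale), with the dashed line marking equal change. At the distal peaks opened without IL-10 the medians are 0.55 with and 1.00 without IL-10, and most of the peaks to the right of 0 lie below the dashed line.

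As a further description, the slope of the response with IL-10 on that without was taken within each replicate number. Over the 34896 distal DARs of LPS against Unstimulated it was 0.471, 0.391 and 0.479 for replicates 1 to 3, a mean of 0.447 ± 0.049 (SD, n = 3), and over the 7696 promoter DARs 0.353, 0.339 and 0.468, a mean of 0.387 ± 0.071 (SD, n = 3). Over the DARs of the comparison within IL-10-treated cells the means were 0.747 ± 0.057 and 0.681 ± 0.078 (SD, n = 3), so the size of the slope depended on which comparison chose the peaks. Counting noise in the response without IL-10 also lowers such a slope, and no value for equal responses was computed, so it is not a measure of how much of the response was lost. Replicate 2, whose LPS libraries were in another lane than its libraries without LPS, had the lowest slope for both kinds of peak. The promoter slope also moved with the Unstimulated libraries, and was 0.246 without Unstimulated replicate 3 and 0.235 without replicate 3 in every group.

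A test of the difference itself, the interaction of LPS with IL-10, called 3907 peaks (2.01%) with a higher and 11454 (5.90%) with a lower LPS response in IL-10-treated cells. Of all promoter peaks tested 1.4% were higher and 16.9% lower, and of all distal peaks 2.15% and 3.33%. Of the lower ones 6211 were promoters, and 3118 of these were called in neither LPS comparison on its own. The promoter split was 1147 higher and 736 lower with loess offsets, and 2688 and 3327 when promoter and distal peaks were scaled as separate tables, so its direction depended on the scaling. The 6211 promoters had a median GC content of 61.8% against 50.4% over all promoter peaks tested, and a median level of 36.0 CPM in IL-10 cells against 4.64. The totals over all peaks were not stable. Without replicate 2 they were 603 higher and 1135 lower, without replicate 1 1431 and 5653, without replicate 3 2502 and 11475, and without Unstimulated replicate 3 5636 and 17395. With total counts they turned to 12207 higher and 5152 lower, and with loess offsets to 4133 and 3907. Single peaks with large differences are therefore described rather than the totals. Of the 3394 distal peaks with a higher response, 1369 (40.3%) were opened with IL-10 and not called without it, and 1371 (40.4%) were closed without IL-10 and not called with it. Of the 5243 distal peaks with a lower response, 2800 (53.4%) were opened without IL-10 and not called with it.

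Among peaks with at least 50 normalised counts on average, the largest gains lay at the Saa cluster and at Pfkfb3, where accessibility was low in all groups but LPS + IL-10. In Saal1, next to the acute-phase serum amyloid A genes, the peak chr7:53958963-53960378 had 47.8, 35.1 and 22.6 counts in Unstimulated, 40.6, 38.5 and 51.6 in LPS, 31.4, 50.2 and 38.0 in IL-10 and 496, 455 and 389 in LPS + IL-10 libraries. The log2 fold change of LPS was 3.48 (SE 0.20) with and 0.32 (SE 0.25) without IL-10, a difference of 3.16 (SE 0.33, FDR = 1.5e-11). All LPS + IL-10 libraries were far above the other 9, which overlapped with each other. The intronic Saal1 peak whose sequence is given above (chr7:53962488-53964108) showed the same order, with 44.0, 21.7 and 30.9, then 38.0, 46.0 and 30.3, then 23.1, 55.7 and 70.6, and finally 543, 525 and 402 counts, a difference of 3.01 (SE 0.35, FDR = 8.8e-10). Saa3 lies within 25 kb of the first of these peaks, and 9 of the 25 peaks near Saa3 had a higher and 1 a lower response with IL-10.

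Pfkfb3 encodes an enzyme that drives glycolysis. The intergenic peak 25219 bp from its TSS (chr2:11389251-11391626) had 52.8, 59.9 and 35 counts in Unstimulated, 101, 93.8 and 55.0 in LPS, 54.5, 46.6 and 49.4 in IL-10 and 650, 433 and 478 in LPS + IL-10 libraries, a difference between the LPS responses of 2.59 (SE 0.28, FDR = 1.3e-10). The peak chr2:11397979-11399678 in the gene differed by 2.59 as well (SE 0.32, FDR = 8.0e-09), with 335, 177 and 230 counts in LPS + IL-10 libraries against 34.2 to 56.3 in the other 9. Of the 24 peaks near Pfkfb3, 14 had a higher response with IL-10, a count looked at after the values of this locus were seen.

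Gains were also found at Il1rn, Itgam, Pparg and S100a8. At Il1rn the peak described above had 107, 78.4 and 64.9 counts in Unstimulated and 194, 190 and 226 in LPS libraries, so that the response was 2.62 with and 1.30 without IL-10, a difference of 1.32 (SE 0.25, FDR = 0.00017). Near genes that restrain LPS signalling, 16 of 259 peaks had a higher response with IL-10 and 23 a lower one, against 2.01% and 5.90% of all peaks tested. Of the higher ones 6 were at Irak3, 5 at Dusp16 and 3 at Dusp1. With total counts the split of this list was 42 and 17, and without replicate 2 it was 5 and 3. Itgam had a distal peak (chr7:135189423-135190807) with 24.0, 17.4 and 17.7 counts in IL-10 and 64.9, 65.3 and 75.9 in LPS + IL-10 libraries, against 39.0, 36.1 and 27.8 in Unstimulated and 29.3, 33.8 and 11.2 in LPS libraries, a difference of 2.23 (SE 0.41, FDR = 0.00011). The promoter peak of Pparg, for a lipid-sensing nuclear receptor, differed by 3.02 (SE 0.66, FDR = 0.001) from low counts of 4.49 to 28.6, and by 2.44 (FDR = 0.08) without replicate 1. The neutrophil calprotectin gene S100a8 had a peak that rose from 30.5, 15.5 and 22.9 to 47.7, 53.3 and 49.2 with IL-10, a difference of 1.89 (SE 0.41, FDR = 0.00096) that was 1.79 (FDR = 0.054) without replicate 2.

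Under the same limit on counts, the largest losses were at Gbp4, Zufsp, Il1b and Il6. Upstream of Gbp4, a GTPase gene of cell-autonomous defence (chr5:105579564-105580368), the peak had 12.6, 6.19 and 26.8 counts in Unstimulated and 108, 118 and 125 in LPS libraries, but 49.0, 57.5 and 36.2 in IL-10 and 30.5, 55.5 and 40.6 in LPS + IL-10 libraries. The response was 2.92 without and -0.18 with IL-10, a difference of -3.10 (SE 0.38, FDR = 6.7e-09). In Zufsp, a promoter-class peak (chr10:33652219-33653102) had 20.1, 14.5 and 14.4, then 167, 159 and 154, then 28.6, 28.3 and 31.8, and then 58.2, 31.6 and 51.8 counts in the same order, a difference of -2.61 (SE 0.36, FDR = 2.7e-07). Its rise of 0.68 with IL-10 (FDR = 0.04) was lost when single libraries were left out, for example 0.49 (FDR = 0.31) without replicate 1. A distal Il6 peak (chr5:30348553-30350317, 9734 bp from the TSS) had 25.1, 16.5 and 23.7 counts in Unstimulated and 241, 169 and 177 in LPS, against 3.69, 14.6 and 18.5 in IL-10 and 16.2, 20.7 and 24.2 in LPS + IL-10 libraries (difference -2.45, SE 0.45, FDR = 0.00011). At Il1b, the peak chr2:129188319-129189354, which the annotation places 4251 bp from the coding TSS in an exon of another transcript, had 12.6, 3.10 and 12.4 counts in Unstimulated, 332, 305 and 289 in LPS, 24.9, 27.4 and 34.4 in IL-10 and 177, 162 and 160 in LPS + IL-10 libraries. LPS opened it by 5.06 without and 2.51 with IL-10, a difference of -2.54 (SE 0.39, FDR = 3.2e-06).

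At several of these loci the IL-10 libraries were already above the Unstimulated libraries before LPS. The Socs3 promoter peak had 285, 327 and 358 counts in Unstimulated and 1435, 1217 and 1216 in LPS libraries, while both IL-10 groups were between 910 and 1346, so the response was 1.99 without and -0.22 with IL-10 (difference -2.21, SE 0.19, FDR = 7.1e-15). At the 3' peak of Il12b the IL-10 libraries, at 348 to 381, were above the Unstimulated libraries, at 157 to 196, and the LPS + IL-10 libraries, at 205 to 238, were below the LPS libraries, at 277 to 338 (difference -1.59, SE 0.20, FDR = 2.3e-08). The Il6 promoter peak had 161, 216 and 240 counts in Unstimulated and 805, 595 and 686 in LPS libraries, and all 6 libraries with IL-10 lay between 260 and 370 (difference -1.71, SE 0.21, FDR = 2.7e-09). The upstream Il12b element had 30.2, 44.4 and 59.7 in Unstimulated and 596, 553 and 545 in LPS libraries, and its response of 2.40 with IL-10 compares with 3.63 without (difference -1.23, SE 0.25, FDR = 0.00051, but FDR = 0.1 without replicate 2). For the Tnf gene peak the difference was -0.72 (SE 0.20, FDR = 0.012), with FDR = 0.4 without replicate 2 and FDR = 0.053 without IL-10 replicate 2, and it was -0.07 (FDR = 0.85) with loess offsets.

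For the interferon loci with the largest rises no difference between the responses was called. At these Ifit1, Tmprss2 and Ifit3 peaks the interaction was 0.43 (SE 0.40), -0.15 (SE 0.31) and -0.80 (SE 0.37), with FDR of 0.59, 0.85 and 0.2. The peaks were chosen for their rise with IL-10, which raises that side of the difference and makes a lower response less likely to be called. Whether IL-10 leaves these loci unchanged therefore cannot be read from them. Over the whole interferon list, 76 of 432 peaks had a lower and 1 a higher response with IL-10, and the median log2 change was 0.88 with and 1.19 without. Lower peaks numbered 45 under total-count scaling, 41 under loess offsets and 17 without replicate 2. At the Ccl5 promoter the response was 3.74 with and 4.91 without IL-10 (difference -1.17, SE 0.32, FDR = 0.011), which lost its call without replicate 2 (FDR = 0.15) and without IL-10 replicate 1 (FDR = 0.13). Cytokine and chemokine genes had 78 of 342 peaks lower and 2 higher, against 5.9% lower and 2.01% higher of all peaks tested. Without replicate 2 these were 23 and 1, and with total counts 52 and 10. Near NF-kappaB subunits and inhibitors 62 of 251 peaks were lower and 5 higher. Without replicate 2 these were 15 and 2, and with total counts 35 and 16. Lower peaks outnumbered higher ones in most other lists too, as over all peaks. They were 65 of 301 at inflammatory enzymes and surface receptors, 30 of 210 at LPS receptor and adaptor genes and 36 of 291 at IL-10 receptor and STAT3 response genes. Without replicate 2 they numbered 25, 2 and 6. Lysosome, lipid and cholesterol efflux genes had 24 of 350 higher and 8 lower, and 8 and 1 without replicate 2. The listed genes with the most lower peaks were Nfkb1, with 28 of 43, and Cd40, for a costimulatory receptor, with 15 of 26, counts picked for their size.

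**Figure D4:**
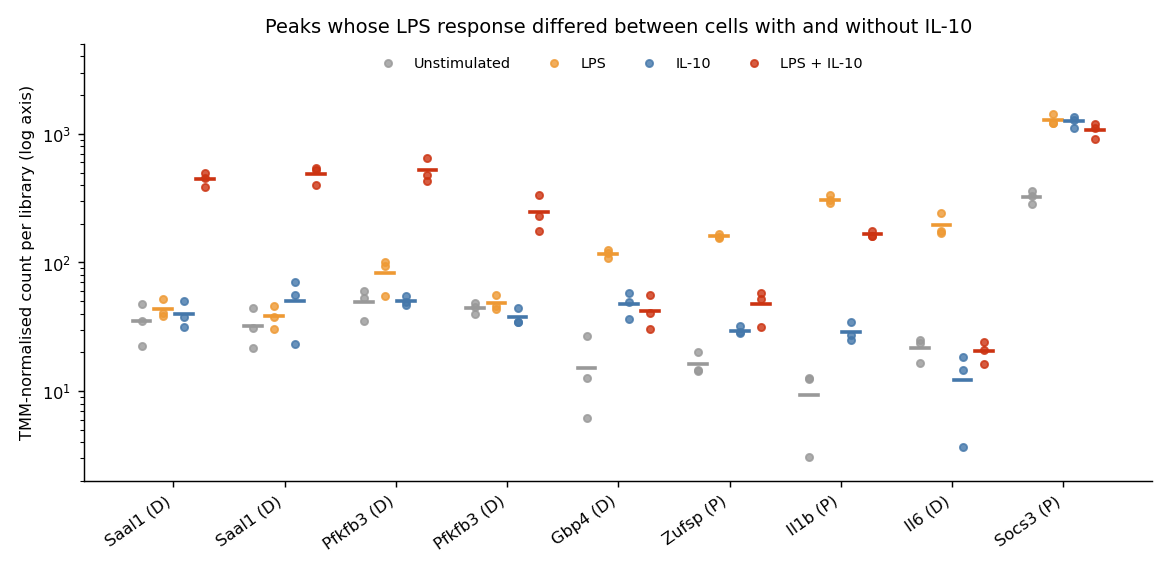
TMM-normalised count (log axis) of each library in the 4 groups at the 8 peaks with the largest differences between the LPS responses among those with at least 50 normalised counts on average and at the Socs3 promoter, with D for distal and P for promoter peaks and a bar at the mean of the 3 libraries. At the Saal1 and Pfkfb3 peaks the LPS + IL-10 libraries alone are high (177 to 650), at Gbp4, Zufsp and Il6 the LPS libraries alone are high, and at Socs3 only the Unstimulated libraries are low (285 to 358). The 8 peaks were chosen for these differences in the same libraries.

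Regions that LPS opened and closed after IL-10 also differed in width, position and base composition. Opened distal peaks were wider than all distal peaks tested, with a median of 1277 against 906 bp. Closed distal peaks had a median level before LPS of 3.84 against 1.46 CPM, but this level is itself part of the fold change. Closed distal peaks were more often more than 50 kb from a coding TSS, at 30.1% against 20.8% of all and 22.4% of opened peaks. Opened promoter peaks had a lower GC content than all promoter peaks, with a median of 46.4% against 50.4%, and closed ones 51.8%. The promoter class is that of the authors, and 79.6% of its peaks lay within 1 kb of a TSS in the annotation used here. Opened promoter peaks were at a median of 1720 bp from a coding TSS, against 673 bp for closed and 911 bp for all. Width and level also bear on the power of the test, since wide and strong peaks hold more reads.

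Motif matches in the central 500 bp differed between opened and closed distal peaks. The AP-1 sequence TGACTCA was present in 18.8% of opened and 10.6% of closed peaks, against 13.6% of all distal peaks tested. The interferon element was present in 9.24% of opened, 6.63% of closed and 7.44% of all peaks, and the share was 11.8% among the 836 peaks that opened by more than 2 on the log2 scale. For PU.1/ETS (GAGGAAG) the order was the opposite, with 20.3% of opened, 32.3% of closed and 23.7% of all distal peaks, and at promoters 20.7%, 27.1% and 21.3%. The kappaB consensus was found in 6.88% of opened and 4.14% of closed against 5.35% of all distal peaks, and the E-box CACGTG in 5.78%, 8.15% and 6.76%. The STAT sequence TTCCNGGAA was at 1.54%, 1.68% and 1.56%. Matches of different motifs can overlap, and these shares are a description with no test.

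Among the distal peaks opened without IL-10 whose response was lower with it, 15.8% held an interferon element and 10.1% a kappaB match, against 12.8% and 8.65% of all distal peaks opened without IL-10. Among the 1594 distal peaks that opened with IL-10 and had a higher response there, the shares were 6.46% and 4.64%, with 1.44% for STAT and 16.1% for AP-1. Over all distal peaks opened with IL-10 these were 9.24%, 6.88%, 1.54% and 18.8%. Both sets rest on interaction calls, whose totals were not stable. The Saal1 and Pfkfb3 peaks with the largest gains held no match to AP-1, the interferon element, STAT, the E-box or kappaB in their central 500 bp.

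**Figure D5:**
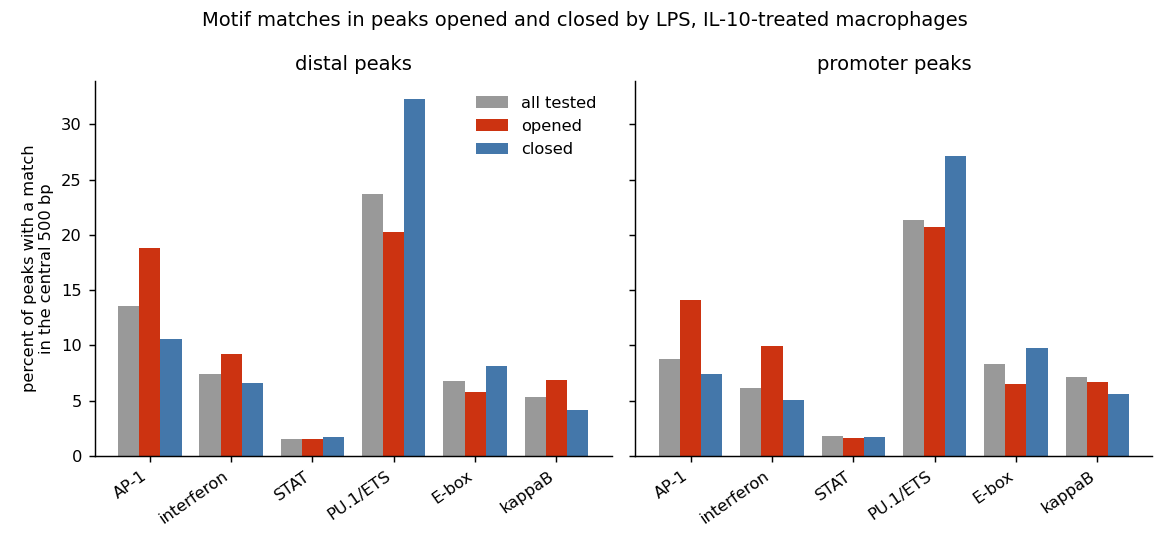
Percent of distal (left) and promoter (right) peaks with at least 1 motif match in their central 500 bp, among all peaks tested (grey), peaks opened (red) and peaks closed (blue) by LPS in IL-10-treated macrophages. At distal peaks AP-1 matches are at 18.8% of opened and 10.6% of closed peaks, and PU.1/ETS matches at 20.3% and 32.3%.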

How the data were processed

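ATAC-seq was performed on 18 libraries of BMDMs from 3 mice, 3 in each of 6 groups. The authors deposited raw read counts per peak, made by unique alignment to mm9 with Bowtie2 in PEPATAC, peak calling per library with MACS2 and merging into a union set, and they assigned promoters with ChIPseeker. The read counter is not given in the sources used here. The union table has 6 further columns, which were not used. Peak coordinates are printed as in the files, which do not state whether starts count from 0.

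Counts were fitted with edgeR 4.0.16 (R 4.3.3) by the quasi-likelihood test, over all 18 libraries in 6 groups, with TMM scaling and filterByExpr, which kept 194230 peaks. Contrasts were LPS + IL-10 minus IL-10, LPS minus Unstimulated, and their difference (the interaction). FDR values are Benjamini-Hochberg adjusted over all peaks tested. Slopes are least squares through the origin of log2 CPM differences (prior count 2) within each replicate number, with no test. Genes were taken from the mm9 annotation (GENCODE), the 242 genes of 18 lists were all found, and the nearest gene is that with the nearest coding TSS. Peaks were named as the 5 distal and 3 promoter peaks with the largest rise and fall, and the 4 largest positive and negative interactions, among peaks under an FDR of 0.05 with a mean of at least 50 normalised counts and one direction in all 3 same-numbered pairs. To these were added, for up to 3 genes per list, the DAR with the largest change within 25 kb of a TSS, the promoter peaks and DARs of Il12b, Tnf, Il6, Il1b and Socs3, and the promoter peak of Il10. In a test on simulated data for LPS + IL-10 against IL-10, over 190825 peaks, edgeR and DESeq2 1.42.0 each recovered 200 of 200 peaks changed by 1.5 on the log2 scale, with 10 and 8 false calls. The changed peaks were drawn from the stronger ones, all groups otherwise shared a common mean, and no lane or replicate effect was simulated. This recovery therefore checks the code and does not give the power for weaker peaks or smaller changes.

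The series' design calls the samples biologically matched, and same numbers were taken as pairs on that ground, though no label ties a number to a mouse. After the group means were subtracted, same-numbered IL-10 and LPS + IL-10 libraries had correlations of -0.00717, 0.00512 and -0.0141, and other pairs of -0.00657 to 0.0145. The members and gene lists were chosen with earlier results of these data known. There were 21 alternative settings, and 3 more, each leaving out an Unstimulated library, were added after the data were seen.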

Additional observations from a re-analysis of the deposited data

Results flagged for a closer look

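At 29 of the 117 named peaks the LPS response with IL-10 differed from that without, by the interaction in edgeR's quasi-likelihood test. The values here are these differences on the log2 scale. Of all peaks tested, 2.01% were called higher and 5.90% lower. The peaks at Saal1, Pfkfb3, Gbp4 and Zufsp and the largest at Il1b and Il6 were named for this difference. Their calls therefore follow from the choice, and the other peaks were named for their change with IL-10 or for their gene. A higher response with IL-10 was found at 9 peaks, with 3.16 and 3.01 at Saal1, 2.59 and 2.59 at Pfkfb3, 3.02 at Pparg, 2.23 at Itgam, 1.89 at S100a8, 1.36 at Tnip1 and 1.32 at Il1rn. At Tnip1, whose protein limits NF-kappaB, the call (FDR = 0.029) was lost under 10 alternatives, among them 0.77 (FDR = 0.48) without replicate 1 and 1.22 (FDR = 0.085) with loess offsets.

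A lower response was found at the other 20. At inflammatory cytokine genes the differences were -2.54, -2.23, -1.55 and -1.03 at Il1b, -2.45 and -1.71 at Il6, -1.96, -1.59, -1.23 and -0.97 at Il12b, and -0.72 and -0.65 near Tnf. At Il1b the smallest of these (FDR = 0.046) lost its call under 13 alternatives, and near Tnf the smallest (FDR = 0.026) under 9. At Socs3 they were -2.21, -1.07 and -0.87, at Gbp4 -3.10, at Zufsp -2.61, at Ccl5 -1.17, at Tlr4 -1.53 and at the promoter of Hdac6 next to Gata1 -0.99. The Tlr4 call was lost without replicate 1 (-1.34, FDR = 0.099) and without replicate 3 (-1.20, FDR = 0.18), and that near Gata1 without replicate 2 (-0.89, FDR = 0.1).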

How the results depend on the processing

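Of 111 called responses at named peaks, 69 kept their call and direction under all alternatives run and none reversed, and of 29 called interactions 16 did. With a test against a minimum fold (glmTreat) 800 promoter peaks opened and 279 closed, 5591 distal peaks opened and 2459 closed, and 370 interactions were higher and 738 lower. At an FDR under 0.01, 6374 distal peaks closed and 1273 interactions were higher and 6277 lower. Separate scaling of the tables gave 1211 closed promoters. DESeq2 gave 2499 higher interactions, total counts 12207 higher and 5152 lower, and loess offsets 3907 lower. The promoter slope was 0.492 with loess offsets, 0.681 over peaks called with IL-10 and 0.472 over those above 1 on the log2 scale, and the distal slope 0.747 over peaks called with IL-10, 0.509 with at least 10 counts in every library and 0.366 with total counts. The cause of these changes was not tested.

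With a replicate number, or a single IL-10 or LPS + IL-10 library, left out, promoter openings were 1720 to 2409 and closings 1066 to 2773, distal openings 9862 to 14044 and closings 5620 to 9827. With an Unstimulated library left out these were 2412 to 2510, 2022 to 2099, 14792 to 15577 and 10324 to 11016. Over both kinds of omission, higher interactions numbered 603 to 5636 and lower ones 1135 to 17395, the promoter slope was 0.235 to 0.466, the distal slope 0.398 to 0.504, and the difference in the distal to promoter ratio 0.160 to 0.208. Uncalled changes crossed 0, with -0.41 to 0.02 at Gbp4 (0.00 without LPS + IL-10 replicate 1), -0.03 to 0.18 at the Il12b promoter (-0.02 without LPS + IL-10 replicate 3) and -0.13 to 0.21 at the Il6 promoter (-0.07 without IL-10 replicate 1 and -0.02 without LPS + IL-10 replicate 1).

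With the replicate number as a replicate block, 2431 promoter peaks opened and 2038 closed, 14905 distal peaks opened and 10528 closed, and 3894 interactions were higher and 11129 lower. Among the named peaks the block changed 1 call, at an Il12b peak (chr11:44210779-44211626, log2 fold change 0.98, FDR = 0.051), and the paired exact permutation test of the distal to promoter ratio gave p = 0.25, the smallest that 3 pairs allow. The median peak gave a distal to promoter difference of 0.00556 (exact permutation p = 0.9).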

Other observations

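Several peaks near markers of other cell types moved with LPS in IL-10-treated cells, in both directions within a list. Near T cell markers 7.35% of peaks opened and 7.35% closed, and near neutrophil markers 6.82% and 1.14%. Over all peaks tested these shares were 8.93% and 6.47%. The peaks described here were picked from these lists. In the other direction, the T cell gene Lck had 3 of 19 peaks opened and the neutrophil gene Mpo 1 of 14 closed. The promoter peak of Camp, for the antimicrobial peptide cathelicidin, went from 103, 93.2 and 97.1 to 322, 242 and 305 normalised counts (log2 fold change 1.57, SE 0.16, FDR = 2.2e-13), with no overlap between the groups. A peak downstream of the TSS of Cd2, an adhesion receptor of lymphocytes, went from 108, 105 and 127 to 35.3, 29.4 and 39.7 (log2 fold change -1.69, SE 0.23, FDR = 2.5e-09). Without IL-10 the changes were 1.72 and -0.96, and the interaction was not called at either peak (FDR = 0.79 and 0.19).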
